A study of Mus musculus with 2 samples.

Results

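The 10 Serpina genes described here, Serpina1a, Serpina1b, Serpina1c, Serpina1d, Serpina1e, Serpina3k, Serpina3m, Serpina3n, Serpina6 and Serpina12, were taken by gene symbol from the 32285 features of the spatial transcriptomics (ST) tables. They are 10 of the 24 features whose symbol starts with Serpina, and all 10 had at least 1000 unique molecular identifiers (UMIs, each standing for 1 captured RNA molecule) over both sections. ST was done with the 10x Visium assay, in which a frozen liver section of 10 µm lies on a slide printed with barcoded spots, so that each spot reads the RNA of a small piece of tissue with several cells. The NCD section came from 1 male C57BL/6J mouse on a normal chow diet and the HFD section from 1 male C57BL/6J mouse on a 60% high-fat diet, bought at 5 weeks of age and acclimated for 1 week. Each was fed its diet for 14 weeks and then given distilled water as the control intervention for 8 weeks. Because each diet is 1 animal and 1 section, an effect of the diet cannot be told apart from animal, section or slide. No test between the diets was made, and all intervals are at the 95% level and cover counting error only.

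Serpins are protease inhibitors that work once: an exposed loop near the C-terminal end, the reactive centre loop, is offered to the protease as bait, and the cut traps the enzyme in an inactive complex. Hepatocytes secrete much of the plasma pool. Serpina1 encodes alpha-1-antitrypsin, which protects tissue from neutrophil elastase, and mice carry several copies of it where humans have a single gene. The Serpina3 genes are the mouse relatives of alpha-1-antichymotrypsin, and Serpina3n is a classic acute-phase gene. Serpina6 encodes corticosteroid-binding globulin, a serpin that carries glucocorticoids in blood instead of inhibiting a protease, and Serpina12 encodes vaspin, an inhibitor of kallikrein 7 first described in visceral fat.

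The sections differed in depth. Over tissue there were 3692 NCD spots with a median of 4187.5 UMIs and 3594 HFD spots with a median of 18549 UMIs. The barcodes mark positions on the slide, and 3173 of them occurred in both tables. On the NCD slide the spots off tissue held 19.1% of all UMIs, against 2.93% on the HFD slide. The median spot off tissue held 3383 UMIs in NCD, against 4187.5 over tissue, and 1175.5 in HFD, against 18549. Spots off tissue in NCD were thus nearly as deep as those over it, which limits how far NCD levels can be read as local. Levels below are UMIs per 1000000 UMIs of the section (CPM), and since a UMI counts 1 captured transcript end they were not divided by gene length. A list of 8 hepatocyte genes held 119793 CPM in NCD and 137523 CPM in HFD, whereas a list of 3 T cell genes held 8.16 and 5.77 CPM, although the labels also name an immune cell type. The 4 Y-linked genes looked at were read in both sections, and Xist had 1 UMI in NCD and 2 in HFD. The median log2 ratio of HFD to NCD over the 6422 genes with at least 1000 UMIs was 0.19, and ratios relative to this median are given where they change a count.

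The 5 Serpina1 coding sequences, each of 1242 bases, were 96.3% to 98.5% identical in pairs, and 86 of 1242 aligned positions differed among them. The differences were densest in 1 stretch of 60 bases that ends 81 bases before the end of the stop codon, with 92 mismatches over the 10 pairs against a median of 18 over all stretches of that size. This stretch encodes the reactive centre loop. It is shown because it is where these near-identical inhibitors part, and because it lies near the 3′ end from which the assay reads. The sequences are those of GRCm38.p6, minus strand, and capitals mark the 18 positions that differ.
Serpina1a, chr12:103853756-103853815: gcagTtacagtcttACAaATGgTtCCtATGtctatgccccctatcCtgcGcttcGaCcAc
Serpina1b, chr12:103728323-103728382: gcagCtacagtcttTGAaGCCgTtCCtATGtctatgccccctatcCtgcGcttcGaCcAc
Serpina1c, chr12:103895093-103895152: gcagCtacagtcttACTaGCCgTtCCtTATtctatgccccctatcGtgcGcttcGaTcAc
Serpina1d, chr12:103763761-103763820: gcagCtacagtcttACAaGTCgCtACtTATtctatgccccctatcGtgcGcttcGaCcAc
Serpina1e, chr12:103947099-103947158: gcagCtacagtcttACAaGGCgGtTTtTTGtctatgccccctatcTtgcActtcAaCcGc

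Serpina3k, Serpina3m and Serpina3n were less alike, with 82.6% to 91.0% identity over coding sequences of 1257 bases. Here too the densest differences fell 78 bases before the end of the stop codon, where 40 of 60 aligned positions differed. The aligned bases are printed on the plus strand, with capitals at the positions that differ, and Serpina3k lacks 6 of the aligned bases.
Serpina3k, chr12:104345290-104345343: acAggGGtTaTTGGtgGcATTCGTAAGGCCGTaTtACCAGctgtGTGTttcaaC
Serpina3m, chr12:104393790-104393849: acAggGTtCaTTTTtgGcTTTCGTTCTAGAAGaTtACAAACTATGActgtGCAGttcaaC
Serpina3n, chr12:104413469-104413528: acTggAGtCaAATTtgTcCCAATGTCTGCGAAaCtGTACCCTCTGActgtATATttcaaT

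These stretches bear on how far the counts can be told apart. Of the 411 windows of 90 bases in the last 500 bases of the annotated transcript, 411 occurred in no other gene for Serpina1e, Serpina3k, Serpina3m, Serpina3n, Serpina6 and Serpina12. The share was 96.4% for Serpina1b, 92.5% for Serpina1d, 84.7% for Serpina1c and 78.1% for Serpina1a. Counts of these 4 copies, and of Serpina1a above all, are uncertain where reads could fall on another gene. The sum over Serpina1a to Serpina1e is therefore given beside the single copies. For Serpina1a the most shared windows, 47, were with a gene whose symbol does not start with Serpina. The sum does not cover reads shared with that gene. Of the annotated Serpina3m transcripts, 1 begins at the first exon of Serpina3k, but the last 500 bases of each were unique.

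Promoter sequence from RefSeq (250 bases before to 50 after the start of each gene, GRCm38.p6) was found for 7 of the 10 members. The upstream part of the 5 Serpina1 promoters is printed because the copies that share it differed widely in level. The 120 aligned bases, which end 1 base before the start of Serpina1d, are on the minus strand, and capitals mark the 10 positions that differ.
Serpina1a, chr12:103863625-103863744: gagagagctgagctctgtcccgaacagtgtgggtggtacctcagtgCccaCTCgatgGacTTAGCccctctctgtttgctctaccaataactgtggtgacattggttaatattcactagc
Serpina1b, chr12:103738200-103738319: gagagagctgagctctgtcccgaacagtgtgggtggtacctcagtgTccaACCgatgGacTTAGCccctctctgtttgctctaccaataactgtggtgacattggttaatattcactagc
Serpina1c, chr12:103904962-103905081: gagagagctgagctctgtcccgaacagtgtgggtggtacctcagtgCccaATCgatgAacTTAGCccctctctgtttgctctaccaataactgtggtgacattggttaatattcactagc
Serpina1d, chr12:103773634-103773753: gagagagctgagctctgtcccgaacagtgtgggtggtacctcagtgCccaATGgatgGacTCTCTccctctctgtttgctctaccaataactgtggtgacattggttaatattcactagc
Serpina1e, chr12:103956960-103957079: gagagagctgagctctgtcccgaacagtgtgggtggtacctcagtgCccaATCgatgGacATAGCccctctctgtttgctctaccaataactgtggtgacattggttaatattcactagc
Serpina1e differed from the most common base at 1 of these positions, as did Serpina1a and Serpina1c, while Serpina1b differed at 2 and Serpina1d at 5. The printed bases lie at -182 to -63 from the annotated start in Serpina1e, and between -131 and -1 in the other copies. Over the whole promoter window Serpina1e was 63.5% to 69.3% identical to the other copies. Those copies were 85.2% to 91.4% identical to each other. Gaps count against these identities, and the Serpina1e window is shifted against the shared bases by the place of its annotated start. The part of this shift in its lower identity was not separated. On either strand, the motif of C/EBP factors, TTGCNNAA, was found in Serpina1a, Serpina1b, Serpina1d, Serpina1e and Serpina12 and in 10.8% of 32851 promoters of the same length. The short glucocorticoid receptor motif, TGTTCT, was found in the 5 Serpina1 promoters and in that of Serpina3n, and in 19.0% of all promoters, and the STAT motif, TTCNNNGAA, was found in none of the 7 and in 8.30% of all. These matches are a description of the letters in the window only.

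Most of the alpha-1-antitrypsin copies were lower in the HFD section, by very different factors. Serpina1e was read at 1566 CPM in NCD and at 118 CPM in HFD, 13.3-fold lower, with a log2 ratio of -3.73 (-3.76 to -3.70). Only 10 of the 6422 genes had a lower ratio. Fewer cells that express a gene and less RNA per cell cannot be told apart in spots that hold several cells. Serpina1c was read at 6201 CPM in NCD and 3191 CPM in HFD, a log2 ratio of -0.96 (-0.97 to -0.95). Serpina1d was read at 4039 and 2002 CPM, a log2 ratio of -1.01. These 3 copies lay past a fold of 1.5, while the other two lay within it. Serpina1a was read at 3565 CPM in NCD and 2637 CPM in HFD, a log2 ratio of -0.44, and Serpina1b at 4820 and 4077 CPM, a log2 ratio of -0.24. The sum of the 5 copies was 20192 CPM in NCD and 12025 CPM in HFD, a log2 ratio of -0.75. The size of these differences depended on the treatment of counts off tissue. When the mean count of the spots off tissue was subtracted, which left 33.0% of the NCD and 92.2% of the HFD UMIs, the log2 ratio was -2.45 for Serpina1e, -0.20 for Serpina1c, -0.27 for Serpina1d, 0.03 for Serpina1a, 0.57 for Serpina1b and -0.0057 for their sum.

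The 3 Serpina3 members moved apart. Serpina3k, also known as contrapsin, was the 10th most abundant transcript of the NCD section at 10124 CPM (10088 to 10161) and the 51st of the HFD section at 2026 CPM (2015 to 2036). The log2 ratio was -2.32 (-2.33 to -2.31), and -1.96 after the subtraction. Serpina3n was read at 181 CPM (177 to 186) in NCD and at 415 CPM (410 to 420) in HFD, a log2 ratio of 1.19. Serpina3m lay between them with 314 CPM (307 to 320) in NCD and 298 CPM (294 to 302) in HFD. Its log2 ratio was -0.08, and the sign turned with the subtraction (0.52), with spots drawn down to 1000 UMIs (0.02) and with a mean over spots (0.03).

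The carrier Serpina6 and the vaspin gene Serpina12 were low in NCD and higher in HFD. Serpina6 was read at 74.9 CPM (71.8 to 78.1) in NCD and at 151 CPM (148 to 154) in HFD, 2.01-fold higher. Serpina12 was read at 61.7 CPM (58.9 to 64.6) in NCD and at 160 CPM (157 to 163) in HFD, 2.60-fold higher. The 3 adipocyte markers Adipoq, Lep and Plin1 together had 1 UMI in NCD and 7 in HFD. Over the 10 members, 3 were higher by more than 1.5-fold in HFD (Serpina3n, Serpina6 and Serpina12), where 19.1% of all 6422 genes were, and 4 were lower (Serpina1c, Serpina1d, Serpina1e and Serpina3k), where 4.13% were. Relative to the median of all genes Serpina1a joined them, which gave 5, and after the subtraction 2 remained, Serpina1e and Serpina3k. Both treatments shift the ratios of other genes too. The shares of all genes past the fold were not counted for them, so these counts have no background. The median log2 ratio of the 10 members was -0.34, against 0.19 for all genes.

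**Figure D1:**
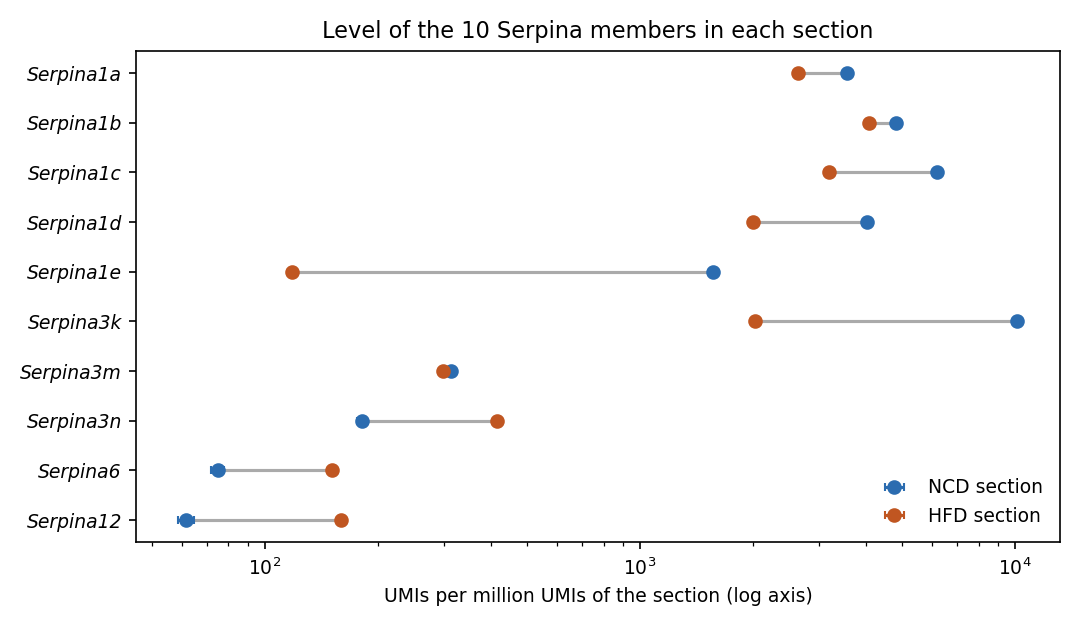
Level of each of the 10 members in CPM on a log axis, with the NCD section in blue, the HFD section in orange and 95% Poisson intervals that are mostly smaller than the points. Serpina1e (1566 against 118) and Serpina3k (10124 against 2026) lie far to the left in HFD, and Serpina3n, Serpina6 and Serpina12 lie to the right.

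The family as a whole took 30948 CPM in NCD and 15075 CPM in HFD, 2.05-fold less, with a log2 ratio of -1.04 (-1.04 to -1.03), and -0.44 after the subtraction. Red blood cell genes were read at 6676 CPM in NCD and 1246 CPM in HFD, and their part in the family level was not tested. Mitochondrial genes took 8.51% of UMIs in NCD and 5.64% in HFD. With mitochondrial genes and the 20 most abundant genes left out of the total, the family log2 ratio was -1.03. Mitochondrial genes were not left out alone. The make-up of the family differed too, and shares of the summed family do not depend on the total of a section. Serpina3k held 32.7% of the family UMIs in NCD and 13.4% in HFD. Serpina1b held 15.6% in NCD and 27.0% in HFD, which made it the largest member there. The 5 Serpina1 copies together held 65.2% in NCD and 79.8% in HFD, 14.5 percentage points more, and this difference was 20.8 points after the subtraction. Serpina1e held 5.06% of the family in NCD and 0.782% in HFD. Serpina3n, Serpina6 and Serpina12 held 0.586%, 0.242% and 0.199% in NCD, and 2.75%, 1.00% and 1.06% in HFD.

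**Figure D2:**
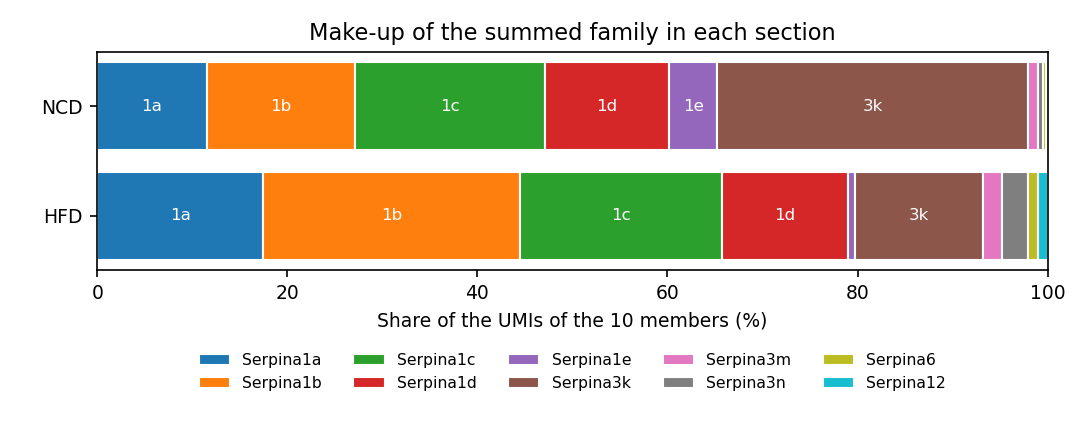
Share of the UMIs of the 10 members taken by each member, as stacked bars that sum to 100% in the NCD and the HFD section. The Serpina3k block is 32.7% in NCD and 13.4% in HFD, and the Serpina1b block is 15.6% and 27.0%.

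All 10 members lie on chromosome 12 in GRCm38.p6, within 768 kb from 103646630 to 104414334. Of the 14 other Serpina features 13 lie on chromosome 12 too, all inside this span except Serpina10. Serpina6 (103646630 to 103657218) lies at one end and Serpina3n (104406646 to 104414334) at the other. Serpina1e (103946931 to 103956897), the lowest in ratio, stands between Serpina1c (103894926 to 103904950, log2 -0.96) and Serpina11 (log2 -0.82), and Serpina12 (104028769 to 104044443, log2 1.38) follows. At the far end Serpina3k (104338486 to 104345739, log2 -2.32), Serpina3m (104387157 to 104394259, log2 -0.08) and Serpina3n (log2 1.19) stand in a row. Of the 14 other Serpina features, 5 had at least 100 UMIs. Serpina7, the gene of thyroxine-binding globulin on chromosome X, was read at 22.1 CPM in NCD and 97.8 CPM in HFD, and Serpina10, a clotting inhibitor, at 87.3 and 193 CPM.

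**Figure D3:**
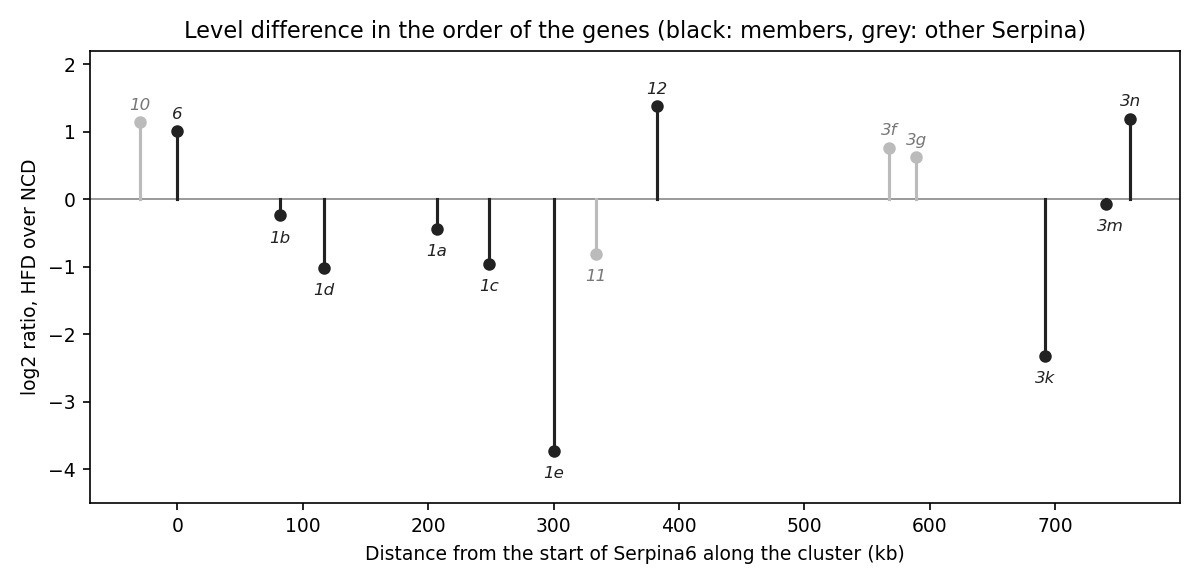
Log2 ratio of HFD to NCD for each Serpina gene of chromosome 12 with at least 100 UMIs, against its distance in kb from the start of Serpina6, with members in black and other Serpina genes in grey. Values range from -3.73 for Serpina1e to 1.38 for Serpina12, and the sign turns 4 times along the order, the last time between Serpina3m and Serpina3n.

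The liver lobule is zoned, with blood entering at the portal field and leaving at the central vein, and hepatocytes along this path express different genes. Spots with at least 1000 UMIs were ordered in each section by their pericentral share of zonal marker UMIs and divided into 5 bins of equal size, 570 or 571 spots each in NCD and 718 each in HFD. The median depth of the bins ran from 3885 to 8542 UMIs in NCD, lowest at the periportal end, and from 14492 to 27577 UMIs in HFD, highest at that end. Markers held out of the ordering followed it for the pericentral side, with log2 ratios of the pericentral-most to the periportal-most bin of 2.32 in NCD and 1.81 in HFD. Held-out periportal markers gave -0.83 in NCD and -0.35 in HFD, where Apoa4 alone ran the other way (0.30). The list of 8 hepatocyte genes gave -0.50 and -0.31, and a list of 6 monocyte-derived and lipid-associated macrophage genes -2.28 and -1.81. Their part in the profiles of the members was not tested.

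Serpina1e and Serpina12 had steep periportal profiles. Serpina1e was read from the periportal-most to the pericentral-most bin at 2942, 2296, 1402, 974 and 728 CPM in NCD, and at 244, 113, 72.4, 50.2 and 36.4 CPM in HFD. It declined at every step in both sections, with log2 ratios of the end bins of -2.02 (-2.07 to -1.96) in NCD and -2.74 (-2.88 to -2.61) in HFD. Serpina12 was read at 147, 101, 45.7, 23.9 and 23.4 CPM in NCD, and at 208, 183, 155, 130 and 96.5 CPM in HFD. Its decline was steeper in NCD, at -2.66 (-2.94 to -2.38), than in HFD, at -1.11 (-1.20 to -1.02), and the difference of the slopes was 1.55 (1.26 to 1.84). Serpina6 ran the other way, at 49.8, 62.5, 69.0, 84.3 and 102 CPM in NCD and at 130, 139, 141, 159 and 194 CPM in HFD, with log2 ratios of 1.03 and 0.57.

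Serpina3k, Serpina1a, Serpina1c and Serpina1d had steeper profiles in HFD than in NCD, and Serpina1b did not. Serpina3k was nearly flat in NCD, from 9702 CPM at the periportal end to 9996 CPM at the pericentral end (log2 0.04), and declined in HFD from 2483 to 1459 CPM (log2 -0.77). The NCD value turned to -0.08 when mitochondrial genes, the 20 most abundant genes and the zonal markers were left out of the total. Serpina1c gave log2 ratios of the end bins of -0.38 in NCD and -0.90 in HFD, Serpina1d -0.14 and -0.52, and Serpina1a -0.39 and -0.62. Serpina1b gave -0.38 and -0.35, and Serpina3n -0.28 and -0.45. Serpina3m gave 0.36 in NCD and 0.03 (-0.02 to 0.09) in HFD. Past a fold of 1.5, 1 member (Serpina6) was higher at the pericentral end in NCD, where 11.2% of all genes were, and 2 were lower, where 3.91% were. In HFD no member was higher, where 6.2% of all genes were, and 5 were lower (Serpina1a, Serpina1c, Serpina1e, Serpina3k and Serpina12), where 3.04% were. The part of the larger share of counts off tissue in the NCD profiles was not tested.

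**Figure D4:**
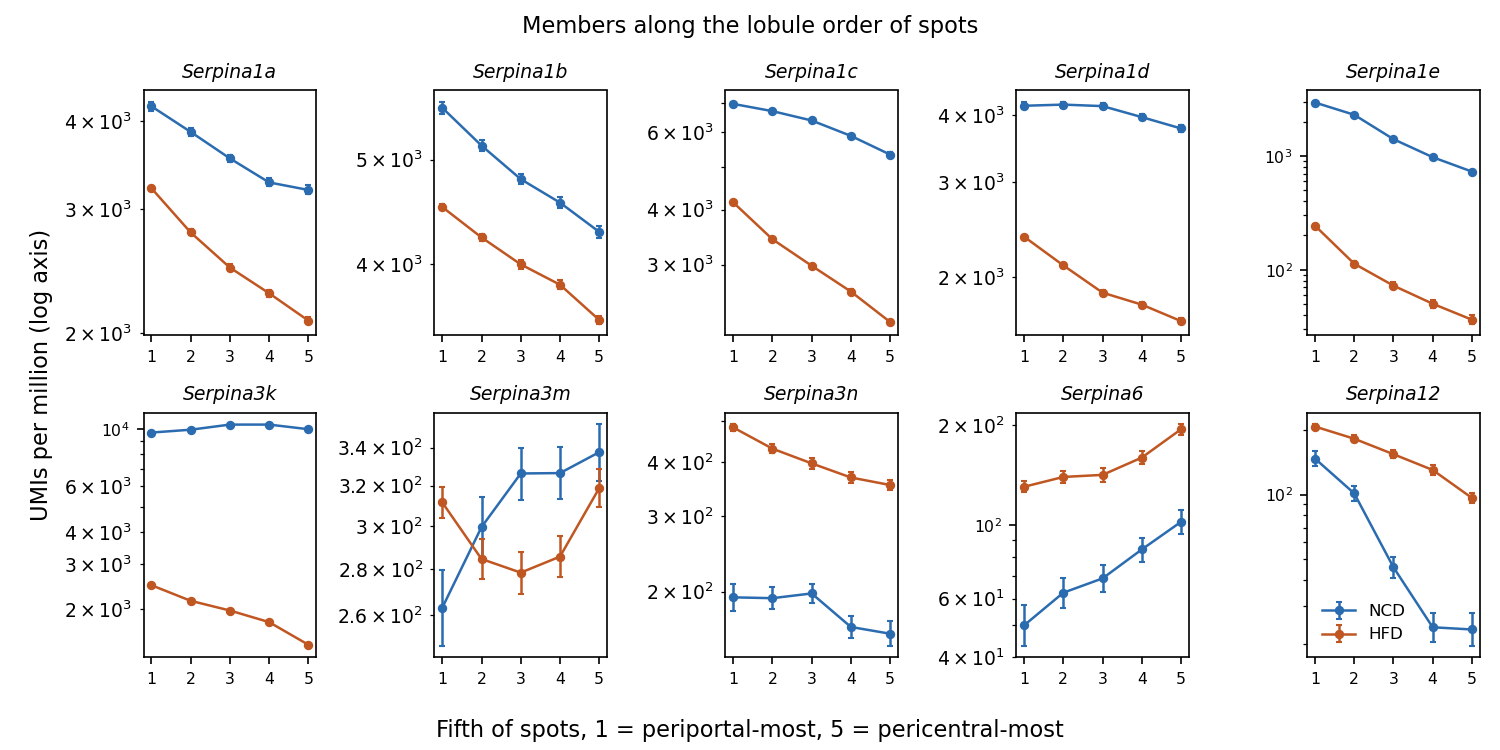
Level of each member in CPM (log axis, a separate range for each gene) in 5 bins of spots from the periportal-most (1) to the pericentral-most (5), in blue for NCD and orange for HFD, with 95% Poisson intervals. Serpina1e and Serpina12 decline in both sections (Serpina12 from 147 to 23.4 in NCD and from 208 to 96.5 in HFD), Serpina6 climbs in both, and Serpina3k is flat in NCD and declines in HFD.

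Between the sections, 9 of 10 members kept their direction in each of the 5 bins, with Serpina3m as the exception. The share of all genes that kept theirs was not counted. Serpina1e was 12.1-fold lower in HFD in the periportal-most bin and between 19.3- and 20.3-fold lower in the following bins. The factor for Serpina3k grew along the order, at 3.91, 4.61, 5.26, 5.83 and 6.85. Serpina12 was 1.41-fold higher in HFD in the periportal-most bin and 1.80-, 3.38-, 5.45- and 4.13-fold higher in the following bins, so its ratio was larger away from the portal side. Serpina6 was 2.61-fold higher at the periportal end and 1.90-fold higher at the pericentral end. Serpina3n was 2.01- to 2.49-fold higher in all bins.

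Spots were also ordered by acute-phase transcripts (Saa1, Saa2, Saa3, Lcn2, Orm1, Orm2 and Hp), none of them a member, and the richest 1 of 5 bins was set against the poorest. Serpina1e and Serpina12 were higher by more than 1.5-fold in the rich bin of both sections, where 2.9% of all genes were in NCD and 2.6% in HFD, and no member was lower, where 2.45% and 2.79% were. The log2 ratios were 0.73 in NCD and 1.94 in HFD for Serpina1e, and 1.14 and 1.00 for Serpina12. This order ran along the lobule, since pericentral markers gave -0.90 in NCD and -1.97 in HFD, and the macrophage list 0.22 and 1.94. The comparison was therefore repeated inside each lobule bin, a choice made after seeing the data. In HFD, Serpina3n was then higher in the rich spots of all 5 bins, with log2 ratios from 0.24 to 0.53 and a mean of 0.34. Serpina12 was higher in all 5 too, from 0.26 to 0.61 with a mean of 0.39, and Serpina6 gave -0.37 to -0.10, with intervals that included 0 in 3 of the 5. Serpina1d was lower in all 5 as well, from -0.33 to -0.05. Its interval included 0 only in the pericentral-most bin (-0.12 to 0.0082). The share of all genes higher, or lower, in all 5 bins was not counted. The bins did not remove lobule position, since pericentral markers still gave -0.43 to -0.15 inside them, and its part in these values was not tested. Serpina1e ranged from -0.20 to 0.55 over the bins. The sum of the Serpina1 copies went from 0.32 over all spots to a mean of -0.08 (-0.18 to 0.07 over the bins). In NCD the mean was 0.18 for Serpina3n (0.07 to 0.44) and 0.23 for Serpina12 (-0.44 to 0.76).

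Spots were ordered by lipid-droplet transcripts too (Plin2, Plin4, Plin5, Cidea and Cidec). Over all HFD spots, every member except Serpina3m had the opposite sign to that over the acute-phase order. In the rich bin 2 members were lower by more than 1.5-fold, Serpina1c at -0.70 and Serpina1e at -2.10, where 1.62% of all genes were, and no member was higher, where 3.04% were. Here too the order ran along the lobule, with pericentral markers at 1.47 and the macrophage list at -0.82. Inside the lobule bins Serpina1e was lower in the rich spots of all 5, with log2 ratios from -0.90 to -0.36, and the interval of the pericentral-most bin included 0 (-0.78 to 0.05). Pericentral markers still moved inside the bins, from 0.41 in the periportal-most to -0.23 in the pericentral-most, and their part in these values was not tested. Serpina1a, Serpina1b, Serpina1c, Serpina1d and Serpina3k were lower in all 5 as well, with means of -0.13, -0.10, -0.27, -0.22 and -0.15. Serpina6 was lower in all 5 too, from -0.27 to -0.02 with a mean of -0.15, and most of its intervals included 0. For Serpina3k the interval of the pericentral-most bin included 0 (-0.13 to 0.0024). The share of all genes lower, or higher, in all 5 bins was not counted. Serpina12 and Serpina3n, negative over all spots (-0.52 and -0.17), had means of 0.09 and 0.09. Serpina12 was higher in all 5 bins, from 0.04 to 0.15, with intervals that all included 0. Inside the bins, the acute-phase and lipid-droplet means had opposite signs only for Serpina1a (0.01 and -0.13) and Serpina1e (0.23 and -0.67). In NCD no member passed the fold in either direction, where 2.93% of genes were higher and 2.69% lower, and the family sum gave -0.0055. Those bins rest on few UMIs, since the ordering list held 88.1 CPM in the poorest NCD bin and 856 CPM in the richest.

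**Figure D5:**
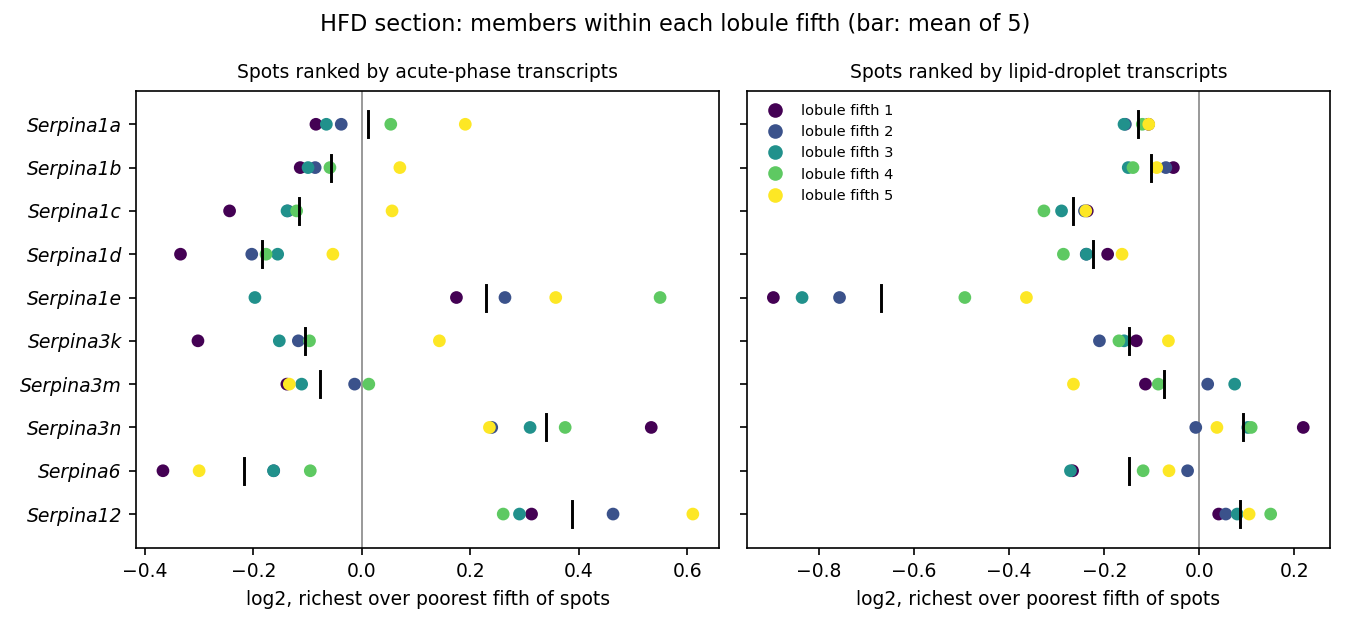
HFD section, log2 ratio of each member between the spots richest and poorest in acute-phase (left) or lipid-droplet (right) transcripts, computed inside each of 5 lobule bins (coloured points, 1 periportal-most to 5 pericentral-most), with their mean as a bar. Serpina3n and Serpina12 lie above 0 in all 5 bins on the left, and Serpina1e lies between -0.90 and -0.36 on the right.

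Members also varied to different degrees from spot to spot. In spots of at least 3000 UMIs (2107 in NCD and 3538 in HFD), the coefficient of variation beyond counting noise was 52.6% in NCD and 136% in HFD for Serpina1e. After all these spots were drawn down to 3000 UMIs, 95.6% of them held a Serpina1e UMI in NCD and 23.0% in HFD. The variation was 88.8% and 39.1% for Serpina12, 8.28% and 26.4% for Serpina3k, and 15.2% and 28.7% for Serpina3n. Among 2566 genes, the one most like the Serpina1 sum across spots was Alb, the albumin gene, with a Pearson correlation of 0.76 in HFD and 0.73 in NCD. Serpina12 was most like Mup20, a major urinary protein gene, at 0.33 and 0.46. The best partners of Serpina6 (Cyp2a5, Cyp2c50, Slc1a2, Oat and Cyp2e1) reached at most 0.17 in HFD, and those of Serpina3n (Ahsg, Hpx, Saa1, Hp and Mt1) at most 0.24. In NCD the same partners gave 0.17 to 0.20 for Serpina6 and 0.01 to 0.09 for Serpina3n. These values are weak, in sparse counts, and were not read further. All these spots share a library and differ in depth and in lobule position.

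Of 12 other serpins of plasma and liver, 3 were higher by more than 1.5-fold in HFD, 2 were lower and 7 lay within. Over the 6422 genes with at least 1000 UMIs, 19.1% were higher and 4.13% lower. Serpinc1, the antithrombin gene, was read at 1738 CPM in NCD and 1433 CPM in HFD. Serpinh1, a collagen chaperone, was read at 6.16 and 35.7 CPM beside a list of 6 stellate cell genes at 227 and 484 CPM. Of 10 proteases that serpins act on or circulate with, 6 had at least 100 UMIs, 1 of which was higher and 5 of which lay within, with a median log2 ratio of -0.28. Among those within were the coagulation and fibrinolysis genes F2 (log2 -0.39), F10 (-0.47), Plg (-0.34) and Klkb1 (-0.22). The gene that was higher was Mmp12, which cleaves alpha-1-antitrypsin, at 1.41 CPM in NCD and 21.9 CPM in HFD, beside a macrophage list that holds it at 70.1 and 285 CPM. Elane, the gene of neutrophil elastase, had 5 UMIs in NCD and 10 in HFD, and Klk7, the target of vaspin, had none.

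Acute-phase genes were mostly higher in HFD, with 12 of 16 past the fold and 1 lower. The shares over all genes to set beside each list here are 19.1% higher and 4.13% lower. Lcn2 was read at 7.65 CPM in NCD and 169 CPM in HFD, Saa1 at 107 and 529 CPM, and Fgb, a fibrinogen chain, at 2994 and 1893 CPM. Of 11 genes of the glucocorticoid axis that Serpina6 serves, 3 were higher (Fkbp5, Per1 and Tsc22d3), with log2 ratios of 1.46, 1.54 and 1.17, and the list's median of 0.20 was near that of all genes. Tat, Sgk1 and Pck1, which are also known glucocorticoid targets, gave 0.29, 0.20 and 0.12, and the receptor gene Nr3c1 gave 0.15. Of 12 genes of protein folding and secretion, 9 were higher, among them the chaperone gene Hspa5 at 240 CPM in NCD and 798 CPM in HFD. Among hepatocyte transcription factor genes, Onecut1 was lower (log2 -1.72), Stat5b was higher at the mark itself (log2 0.59), and Hnf4a, Cebpa and Foxa2 lay within. A list of 8 liver genes known to be higher in males was chosen after values had been seen. Of these, 6 were lower in HFD, among them Hsd3b5 at 61.4 CPM in NCD and 0.0832 CPM in HFD and Elovl3 at 194 and 38.7 CPM, while Mup20 was higher, at 6542 and 11370 CPM. Of 8 liver genes known to be higher in females, chosen in the same way, 2 had at least 100 UMIs. These were Cyp2b9, at 2.96 CPM in NCD and 166 CPM in HFD, and Cyp2b13, with 0 UMIs in NCD and 1458 in HFD. The part of these differences in the levels of Serpina1e and Serpina3k was not tested.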

How the data were processed

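The files the authors deposited hold unnormalized UMI counts of each gene in each spot, made per the labels with Space Ranger on mm10, for all spots and for spots called over tissue. The file headers name spaceranger 1.3.1 and Cell Ranger 4. The gene annotation is not given in the sources used here. Spot positions and images were not used here.

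The UMIs of each gene were pooled over spots and divided by all UMIs (CPM), with exact Poisson intervals for levels, exact Clopper-Pearson intervals for shares and exact conditional binomial intervals for log2 ratios, at the 95% level. Intervals for differences of slopes used a normal approximation. Lobule, acute-phase and lipid-droplet orders used spots of at least 1000 UMIs. A fold of 1.5 was a descriptive mark over 6422 genes with at least 1000 UMIs. The 10 members, all lists and all rules were chosen with earlier results of these data known. Named were all members, genes of the lists with at least 100 UMIs (and Elane and Klk7 below it), and the 5 most correlated genes of 4 items. Coding sequences are the longest reading frames of GENCODE M21 transcripts, and 32158 of 32285 identifiers were found there. Serpina1 frames longer than the shortest were cut at the 5′ end to its length where the cut frame began with ATG. A gene of the lists is not reported here. Alternatives changed the spots, depth, weighting, totals, markers and the subtraction of counts off tissue. Python 3.11.15, numpy 2.4.6 and scipy 1.17.1 were used, sequences were aligned with mafft, and the calculations were tested on simulated data.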

Additional observations from a re-analysis of the deposited data

Results flagged for a closer look

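The family was read off tissue in both slides. Spots off tissue gave 35782 CPM for the 10 members on the NCD slide, against 30948 CPM over tissue, and 11448 CPM on the HFD slide, against 15075 CPM over tissue.

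The lobule profile of Serpina3k was nearly flat in NCD and declined in HFD. The log2 ratios of the pericentral to the periportal end were 0.043 in NCD and -0.77 in HFD. Their difference was -0.81 (-0.84 to -0.78, counting error only). The NCD value lay below the median of all genes on this order, 0.15 in NCD and 0.12 in HFD. It also turned to -0.077 with another total, so the opposite signs are not a reversal of a clear slope. Over the lipid-droplet order, 3 members had opposite signs. Serpina1d gave 0.038 in NCD and -0.46 in HFD, Serpina3k 0.070 and -0.50, and Serpina3m 0.14 and -0.092. The differences between the sections were not tested over animals.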

How the results depend on the processing

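Levels of the members and 2 sums under 9 alternatives gave 108 values, of which 50 stayed within the counting interval, 53 moved and 5 changed sign. The shares gave 77 values (43, 34 and 0), the lobule profiles 216 (106, 109 and 1), the acute-phase order 120 (56, 56 and 8) and the lipid-droplet order 120 (57, 52 and 11). The counting intervals are narrow at this depth, so small shifts leave them. The family log2 ratio of -1.04 became -1.04 with spots of at least 3000 UMIs, -1.01 when spots were drawn down or averaged, -1.09 with all spots of the capture area, -1.03 without mitochondrial and the 20 most abundant genes, -1.23 relative to the median gene and -0.44 with counts off tissue subtracted. With that subtraction the sign turned for Serpina1a (0.033), Serpina1b (0.57) and Serpina3m (0.52), and Serpina3m also turned drawn down (0.023) and as a mean over spots (0.028). The Serpina1 share difference of 14.5 points became 14.7 with 3000 UMIs, 14.2 with all spots, 20.8 with the subtraction and 14.3 as a mean of shares.

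The lobule value of the family, -0.29 in NCD and -0.60 in HFD, became -0.24 and -0.49 with 3 bins, -0.27 and -0.56 with pericentral UMIs alone, -0.27 and -0.63 with periportal UMIs alone, -0.27 and -0.56 as a mean over spots, -0.28 and -0.55 drawn down, -0.41 and -0.65 with the reduced total, and -0.56 in HFD with held-out markers. Serpina3k in NCD turned to -0.077 with the reduced total. The acute-phase value, 0.11 and 0.32, became 0.077 and 0.17 without the most abundant ordering gene, 0.063 and 0.26 drawn down, and 0.26 in HFD with 3 bins. The lipid-droplet value, -0.0055 and -0.45, became -0.044 and -0.37 with 3 bins, -0.024 and -0.43 without the most abundant gene, 0.028 and -0.32 drawn down, and -0.039 in NCD with 3000 UMIs. In NCD over that order Serpina1a (0.026) and Serpina3m (-0.027) turned drawn down, and Serpina1d turned with 3 bins (-0.0098), with 3000 UMIs (-0.0020) and without the most abundant gene (-0.015). Within lobule bins, chosen after seeing the data, the family gave 0.028 and -0.067 for the acute phase and 0.026 and -0.16 for lipid droplets. There the acute-phase sign turned in NCD for Serpina1a (-0.0071) and Serpina6 (0.014) and in HFD for Serpina1b (-0.058), Serpina1c (-0.12), Serpina1d (-0.18), Serpina3k (-0.11) and the Serpina1 sum (-0.077). The lipid-droplet sign turned in NCD for Serpina1c (0.015), Serpina1e (0.036) and the Serpina1 sum (0.0084) and in HFD for Serpina3n (0.092), Serpina6 (-0.15) and Serpina12 (0.086). The cause was not tested. No paired analysis was possible because there is 1 section per diet, and no section could be left out.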
